A study of Mus musculus with 21 samples.

Results

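Hmx1, Bmp5, Gdf6 and Prkra are 4 genes, of 24594 in each count table, in which mutations have been tied to external ear defects in the mouse and which belong to none of the Hox, T-box and sine oculis homeobox families. They were chosen by name, with earlier results of these data known, and all 4 were found in both tables. All 4 passed the filter on low counts in both, Gdf6 in the stage series only through its E10.5 libraries.

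The study asked how a distant enhancer cluster, HIRE1, acts on anterior Hoxa genes in cranial neural crest cells of the pharyngeal arches, the tissue from which the outer ear arises. RNA-seq counts were analysed in 21 libraries, 3 per group. The genotype series held pharyngeal arches 2 and 3 (PA2, PA3) of E10.5 embryos that were wild type (WT) or carried a homozygous deletion of HIRE1 (HIRE1del/del, written HIRE1del). The stage series held E10.5 PA2, E12.5 pinna and E14.5 pinna cells of embryos carrying Wnt1::Cre and a ROSA-RFP reporter, with no deletion. The Wnt1 promoter drives Cre in premigratory neural crest, and the red cells were sorted, after trypsin at E10.5 and E12.5 and after papain at E14.5, so the digestion and the E14.5 stage cannot be told apart. The E10.5 cells came from dissected PA2 and the later cells from the dissected pinna. Between E10.5 and the pinna stages, region and stage therefore cannot be told apart either. No sorting is described for the dissected arches of the genotype series, although its labels name the same cell type. The background was mixed (C57Bl/6J and CD1), and the methods state that embryos of different sexes were combined, with no sex given per library.

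Hmx1 is a homeodomain transcription factor of the lateral head mesenchyme, and mice that lack it have low-set, misshapen ears. Bmp5, the gene of the short ear mutant, and Gdf6 encode secreted ligands of the bone morphogenetic protein (BMP) family, which signal through serine/threonine kinase receptors and Smad proteins, and which act in condensation, cartilage and joint formation. Prkra encodes PACT, a double-stranded RNA binding protein that activates the kinase PKR and binds Dicer, and its loss gives small ears.

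Levels are given as CPM, the count of a gene per unit of library size, with library sizes scaled by the trimmed mean of M-values (TMM) within a table. Libraries held 25804446 to 32210131 counts in the genotype series and 25814151 to 49058941 in the stage series, and the tables were normalised separately, so that no test crosses them. A gene was called where edgeR's quasi-likelihood test gave a Benjamini-Hochberg adjusted p under 0.05 over all genes tested, which were 14383 in the genotype series and 13438 in the stage series. Hoxa2, the gene HIRE1 acts on, stood at 73.4 to 84.2 CPM in PA2 WT and 4.75 to 7.09 CPM in PA2 HIRE1del libraries, and at 56.1 to 65.1 and 22.1 to 25.6 CPM in PA3, in the direction of the labels. Summed transcripts of 4 Y-linked genes were 0.271 CPM in PA2 WT replicate 1 and 6.62 CPM in PA3 WT replicate 1, against 117 to 303 CPM in the other 19 libraries. Fewer cells of a type and less RNA per cell cannot be told apart in such bulk libraries.

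The members lie apart in the genome. On GRCm38 with the GENCODE M21 annotation, Hmx1 (ENSMUSG00000067438) occupies chr5:35389108-35399730 on the plus strand, Bmp5 (ENSMUSG00000032179) chr9:75775364-75900310 on the plus strand, Gdf6 (ENSMUSG00000051279) chr4:9844372-9862345 on the plus strand and Prkra (ENSMUSG00000002731) chr2:76629898-76648015 on the minus strand. Their exons cover 1588, 4025, 3532 and 2028 bases, in that order. The exons of Bmp5 share 1878 bases with the antisense transcript Gm26903, and those of Hmx1 share 175 bases with the oppositely placed 4930442P19Rik. Neither partner has a row in the tables. The protocol describes the library kit as unstranded, so reads of these partners and of the members cannot be told apart.

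The promoters of Hmx1 and Bmp5, which moved in opposite directions over both stage steps, are shown because their base composition differs as well. RefSeq promoter windows on GRCm38.p6 were at hand for Hmx1, Bmp5 and Prkra, not for Gdf6, and the 250 bases before the RefSeq start are printed 5′ to 3′ for Hmx1 (chr5:35388611-35388860, plus strand) and Bmp5 (chr9:75775115-75775364, plus strand). Capitals mark a match to TGATNNAT, a Hox-Pbx type motif, searched on both strands.
Hmx1: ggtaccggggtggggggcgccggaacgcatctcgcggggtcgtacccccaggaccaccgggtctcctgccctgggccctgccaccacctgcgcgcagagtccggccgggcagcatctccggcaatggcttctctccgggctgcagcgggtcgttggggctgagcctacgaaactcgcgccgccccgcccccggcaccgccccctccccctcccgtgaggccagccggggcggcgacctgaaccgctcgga
Bmp5: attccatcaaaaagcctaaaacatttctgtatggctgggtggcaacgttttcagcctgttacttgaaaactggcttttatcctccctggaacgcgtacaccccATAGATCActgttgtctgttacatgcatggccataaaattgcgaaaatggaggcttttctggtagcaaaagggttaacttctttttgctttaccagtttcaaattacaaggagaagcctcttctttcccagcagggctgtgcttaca
The Hmx1 window was 75.6% G or C, above 96.4% of 32851 promoter windows, and held 29 CpG dinucleotides where the median window held 6. The Bmp5 window was 42.8% G or C, above 17.9% of windows, with 4 CpG dinucleotides. The Prkra window was 68% G or C with 15. Bmp5 held 1 match to TGATNNAT, as did 7.68% of all windows at least once, and neither Hmx1 nor Prkra held one. None of these 3 windows matched TGACAG, a Meis type motif found in 15.9% of windows, or TATAAA, found in 12.4%. The Hmx1 window ends 248 bases before the first base of the GENCODE gene.

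The stage comparison addressed how each gene's level in neural crest cells differed between the arch and the growing pinna. Between E10.5 PA2 and E14.5 pinna, Bmp5 rose 12.1-fold while Gdf6 fell 33.8-fold, Hmx1 9.97-fold and Prkra 1.51-fold. All 4 were called in that comparison, in which 82% of all genes tested were called (42% higher and 40% lower). All 4 were also called between E10.5 and E12.5, in which 68.8% were (35% higher and 33.7% lower). Gdf6 passed the filter only through the E10.5 libraries, where it was high, so its calls against E10.5 are not independent of the filter. Between E12.5 and E14.5 Hmx1, Bmp5 and Gdf6 were called and Prkra was not, against 65.7% of all genes. Gdf6 was tested there only because its E10.5 libraries passed the filter, and it failed the filter with the libraries of E12.5 and E14.5 alone. Of the genes called in that second step 49.7% were higher, and 38.5% with scaling by total counts alone, which shifted the median of all genes by -0.12 on the log2 scale. With shares this high, being called sets none of the members apart, and the sizes and directions of the changes are what the following values describe.

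**Figure D1:**
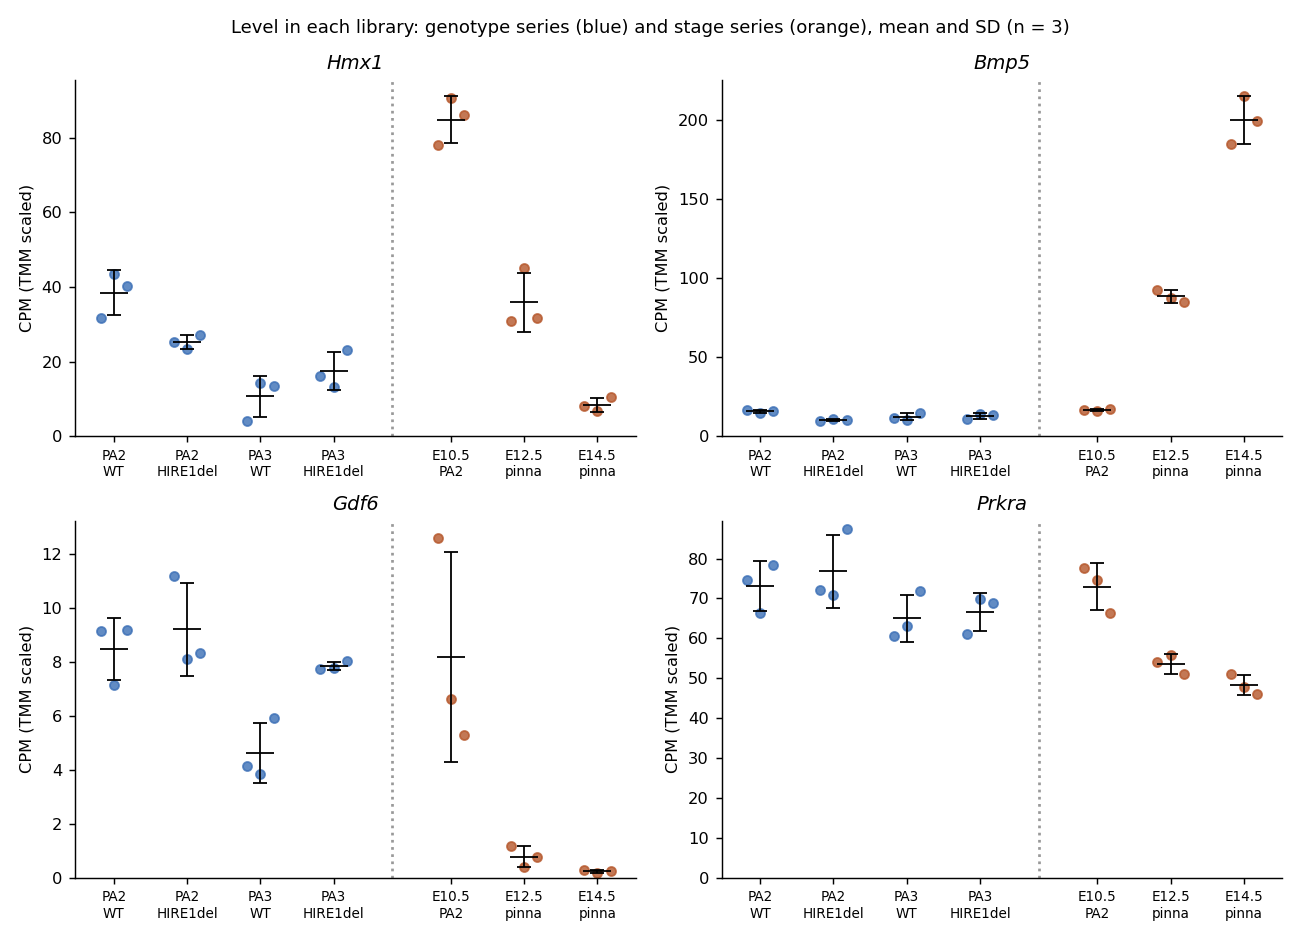
Level (CPM, TMM scaled, vertical axis from 0) of each member in every library of the 7 groups; points are libraries, bars the mean and SD of 3. Left of the dotted line is the genotype series and right of it the separately normalised stage series, in which Bmp5 climbs to 185 CPM or more and Gdf6 falls under 0.3 CPM at E14.5.

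Hmx1 stood at 78.0, 90.5 and 85.9 CPM in the E10.5 PA2 libraries. It stood at 30.9, 45.0 and 31.6 CPM in the E12.5 pinna and at 8.11, 6.87 and 10.6 CPM in the E14.5 pinna. No 2 stages overlapped, and each stage lay below the one before. Its log2 fold change was -1.24 (SE 0.160, edgeR adjusted p 3.56e-05) from E10.5 to E12.5, and -2.08 (SE 0.172, edgeR adjusted p 1.43e-06) from E12.5 to E14.5. Its paralogs Hmx2 and Hmx3, homeobox genes best known from the inner ear and nervous system, did not pass the filter. Hmx3 was counted 16 to 22 times in the E12.5 libraries, at most 1 time in those of E10.5 and 0 times in those of E14.5, where a count of 0 allows up to 3.

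Bmp5 stood at 16.4, 15.9 and 17.2 CPM in E10.5 PA2. It stood at 92.8, 87.7 and 85.2 CPM at E12.5 and at 185, 215 and 199.8 CPM at E14.5. The 3 stages were far apart relative to their spread. On the log2 scale the change was 2.42 (SE 0.0738, edgeR adjusted p 9.35e-10) for the first step, and 1.18 (SE 0.0674, edgeR adjusted p 8.42e-08) for the second. The first step was 5.37-fold and the second 2.26-fold.

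Gdf6 stood at 12.6, 6.62 and 5.29 CPM in E10.5 PA2, where replicate 1 was the highest and the spread relative to the mean was wider than for the other members at that stage. It stood at 1.19, 0.392 and 0.782 CPM at E12.5, from 12 to 32 counts, and at 0.286, 0.189 and 0.241 CPM at E14.5, from 9 to 13 counts. The stages did not overlap, though the 2 pinna stages rest on few counts. In the first step Gdf6 fell by 3.39 on the log2 scale, with an SE of 0.410 (edgeR adjusted p 2.20e-05). The second was -1.69 (SE 0.510, edgeR adjusted p 0.0124), and without E12.5 replicate 1 it was -1.28 with an edgeR adjusted p of 0.0652, which no longer passed. Limma-voom did not call that second step either (-1.55, adjusted p 0.0986).

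Prkra changed least of the 4. It stood at 77.7, 74.7 and 66.4 CPM in E10.5 PA2, at 54.0, 55.9 and 51.0 CPM at E12.5 and at 51.1, 47.8 and 46.0 CPM at E14.5. The E10.5 libraries lay above all the pinna libraries, while those of E12.5 and E14.5 overlapped. In the first step Prkra fell by 0.44 on the log2 scale, with an SE of 0.0734 (edgeR adjusted p 0.00024). The second was -0.15 (SE 0.0733, 95% interval -0.31 to 0.01, edgeR adjusted p 0.0902), and passed only when libraries were scaled by total counts alone (-0.27, edgeR adjusted p 0.00549), a scaling with which 67.9% of all genes were called.

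Per kilobase of exon, the order of the members turned over with stage. At E10.5 Hmx1 led with a mean level of 53.4 CPM per kb, followed by Prkra at 36.0, Bmp5 at 4.10 and Gdf6 at 2.31. At E14.5 Bmp5 led with 49.7 CPM per kb, followed by Prkra at 23.8, Hmx1 at 5.36 and Gdf6 at 0.0676. At E12.5 Prkra at 26.4 ± 1.22, Hmx1 at 22.6 ± 5.01 and Bmp5 at 22.0 ± 0.953 CPM per kb (SD, n = 3) lay close together, and Hmx1 did not differ from either beyond its spread.

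Marker genes of neural crest mesenchyme and of other cell types also differed between stages in the sorted libraries. The summed level of 5 glial markers was 21.6 to 25.1 CPM at E10.5 and 91.4 to 107 CPM at E14.5, with all 5 called higher, and that of 6 endothelial markers was 7.19 to 9.68 CPM and then 111 to 174 CPM, with Kdr and Esam called higher and none lower. The summed level of 6 cartilage markers was 1660 to 1703 CPM at E10.5 and 336 to 371 CPM at E14.5, with Sox9, Col2a1 and Col9a1 called lower and Acan higher. Matn1 was at 0 in every stage library and Snorc in those of E14.5. Epithelial markers summed to 11.2 to 13.1 CPM at E10.5 and 26.9 to 46.2 CPM at E14.5, with 4 of 6 tested called higher and 2 lower. Neuronal markers summed to 37.6 to 43.9 CPM at E10.5 and 11.0 to 17.6 CPM at E14.5, with Tubb3 and Isl1 called lower and Elavl4 and Stmn2 higher. Neural crest mesenchyme markers summed to 1710 to 2007 and 3691 to 4054 CPM, with 3 of 8 called higher and 4 lower, while the erythroid and muscle sums overlapped between E10.5 and E14.5. The part of these cell types in the members' changes was not tested.

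BMP5 and GDF6 proteins belong to a family of ligands that share receptors, and the other ligands of the list give the setting of their transcripts. Of 8 ligand genes (Bmp2, Bmp4, Bmp5, Bmp6, Bmp7, Gdf5, Gdf6, Gdf7), the summed level was 22.5 ± 2.21 CPM per kb at E10.5 (SD, n = 3), 53.2 ± 3.09 at E12.5 and 94.9 ± 4.00 at E14.5. Bmp5 made up 17.1 to 19.4% of that sum in the E10.5 libraries, 40.8 to 42.1% at E12.5 and 50.6 to 54.1% at E14.5, and the stages did not overlap. Gdf6 made up 5.99 to 17.0%, then 0.209 to 0.596%, then 0.0541 to 0.0891%. Bmp4 was the leading ligand transcript at E10.5, at 9.14 CPM per kb against 4.10 for Bmp5, and Bmp5 led it at E12.5 and E14.5, at 49.7 against 26.3 CPM per kb at E14.5.

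**Figure D2:**
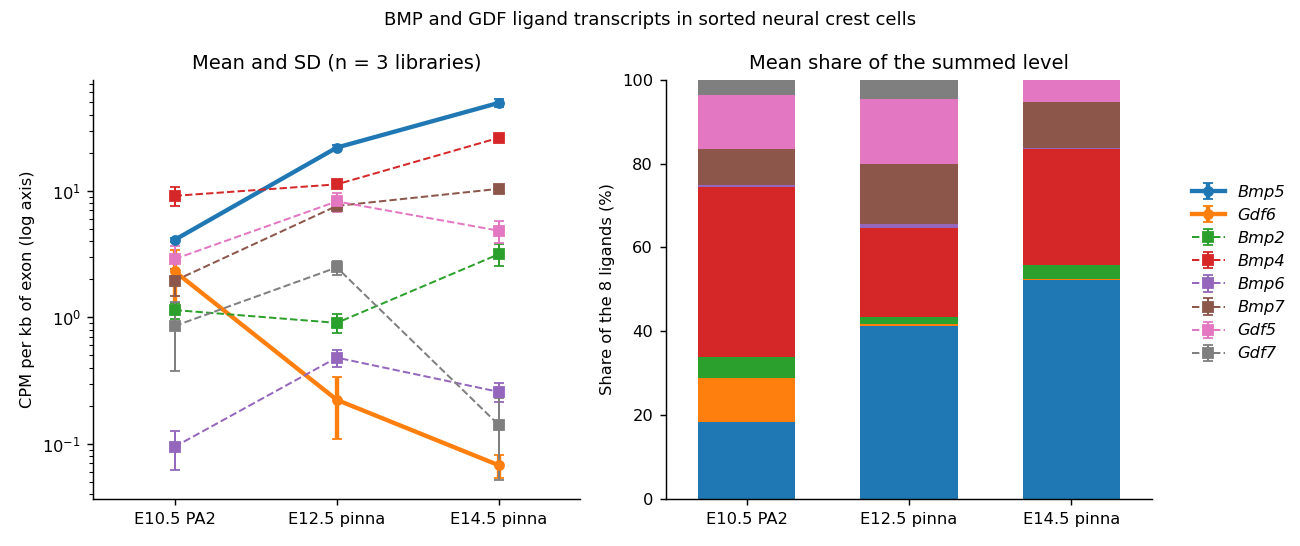
Left, mean and SD of the level of 8 BMP and GDF ligand genes (CPM per kb of exon, log axis) over the 3 stages, with n = 3 libraries each; the members are the thick lines. Right, the mean share of each ligand in their summed level, in which Bmp5 goes from 18.3% at E10.5 to 52.3% at E14.5.

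The 33 listed BMP pathway genes other than the members were described by role. Between E10.5 and E12.5, 21 of the 32 tested were called higher and 3 lower, with a median log2 fold change of 0.43 against 0.01 over all genes. Between E12.5 and E14.5, 13 were called higher and 14 lower, with a median of -0.06 against -0.01.

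Among the 6 ligands other than the members, 5 were called higher and none lower in the first step, and 3 higher and 3 lower in the second. Bmp7 rose 1.97 on the log2 scale in the first step and 0.45 in the second. Bmp4 was called higher in both steps as well, with its mean going from 20.6 to 25.3 to 59.2 CPM. Bmp4 and Bmp7 thus moved in the direction of Bmp5 in both steps. Gdf7, the closest listed relative of Gdf6 together with Gdf5, rose 1.54 and then fell by 4.11 on the log2 scale, from 3.53 CPM to 0.200 CPM on average. Gdf5 rose 1.51 and then fell by 0.77 on the log2 scale. Thus Gdf6 fell in a step in which Gdf5 and Gdf7 were called higher.

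Among the receptors, 4 of 6 were called higher and 1 lower in the first step. Bmpr1a, a type I receptor of most BMP ligands, rose 0.69, and Acvr2b, a type II receptor, fell by 1.25 and then by 0.71 on the log2 scale. Bmpr1b, the type I receptor that GDF5 class ligands prefer, was not called in the first step (-0.16) and fell by 0.95 in the second. Of the 4 Smad transducers, Smad1 and Smad5 were called higher and none lower in the first step. In the second, Smad1 was called higher and Smad9 lower. Smad1, which carries the signal into the nucleus, rose 1.19 and then 0.55.

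The inhibitors were divided, with 6 of 10 tested called higher and 1 lower in the first step, and 4 higher and 6 lower in the second. Grem1, a secreted BMP antagonist, went from 7.79 to 215 CPM in the first step (log2 fold change 4.79). Fst, follistatin, went from 6.04 to 121 CPM in the second (4.32). Chrd, chordin, rose in both steps, by 2.51 and 1.40 on the log2 scale, and Bambi, a pseudoreceptor, fell in both, by 1.51 and 0.63.

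Of 6 target genes of the pathway, 4 were called higher and 1 lower in the first step, and 2 higher and 2 lower in the second. Id2 and Id4 were called higher in both steps, Id4 by 0.86 and 0.60 on the log2 scale. Msx1 rose 0.78 and then fell by 1.25. Msx2 fell by 3.54 and by 2.79 on the log2 scale, from a mean of 11.3 CPM at E10.5 to 0.135 CPM at E14.5. All values named passed edgeR's test except that of Bmpr1b in the first step, for which the edgeR adjusted p was 0.0565.

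**Figure D3:**
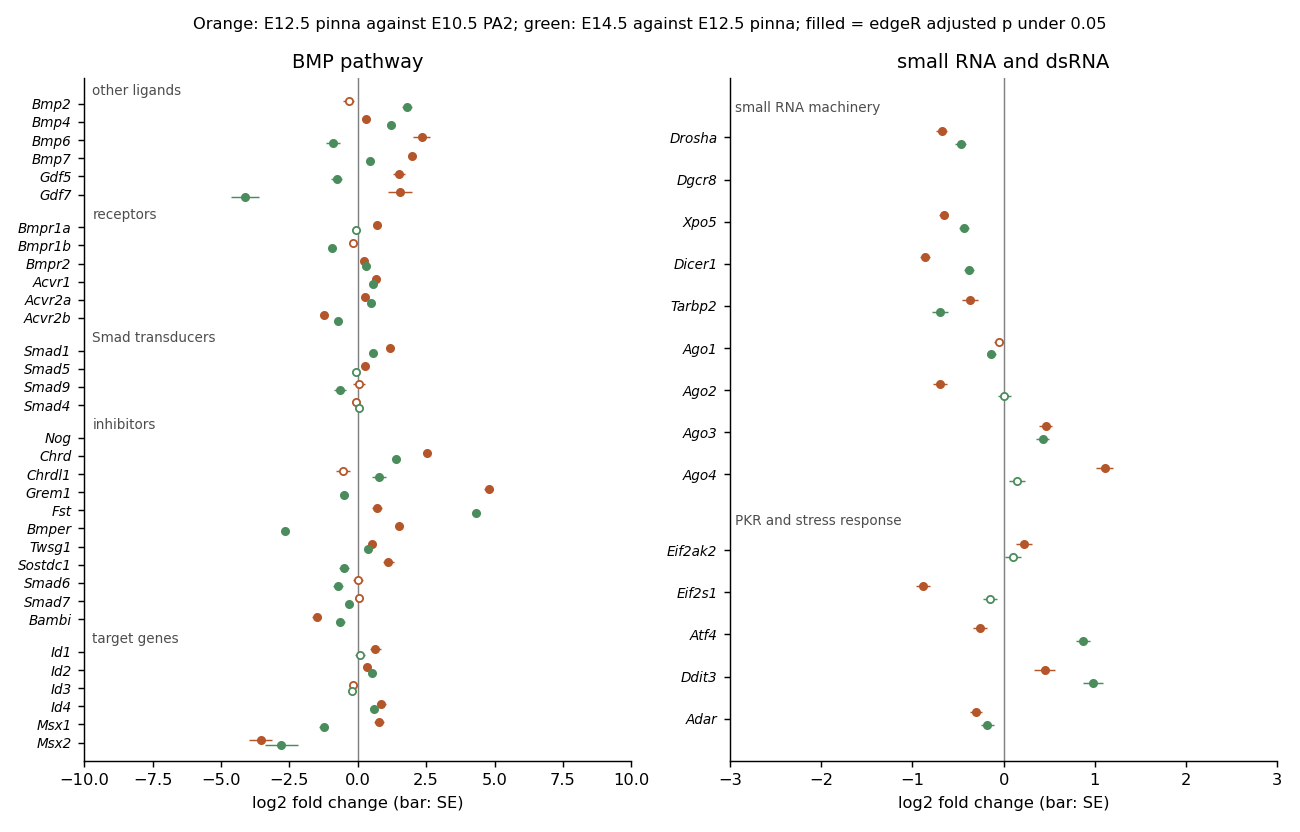
Log2 fold change (horizontal axis) with its SE for the listed BMP pathway genes and the small RNA and double-stranded RNA genes, for E12.5 against E10.5 and E14.5 against E12.5; filled points passed edgeR's adjusted p of 0.05, and genes without points were not tested in the stage series. Grem1 in the first step (4.79) and Fst in the second (4.32) lie farthest to the right.

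Prkra was set beside 14 genes of small RNA processing and the double-stranded RNA response. In the first step 8 of 13 tested were called lower and 4 higher, and in the second 6 lower and 3 higher, with medians of -0.30 and -0.13 against 0.01 and -0.01 over all genes. Dicer1, the enzyme that PACT binds, went from 505 to 278 to 214 CPM, and its log2 changes of -0.86 and -0.38 were both called. Tarbp2, whose product is the other double-stranded RNA binding partner of Dicer and a relative of PACT, fell by 0.37 and then by 0.70 on the log2 scale. Drosha, which makes miRNA precursors in the nucleus, fell by 0.68 and then by 0.47, and Xpo5, which exports them, by 0.66 and then by 0.43. Eif2ak2, the gene of PKR, went the other way in the first step (0.23, edgeR adjusted p 0.0354), and was not called in the second (0.10). Of the factors of the stress response downstream of PKR, Atf4 fell by 0.26 in the first step and rose 0.87 in the second, and Ddit3 rose 0.45 and then 0.98 on the log2 scale.

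In the genotype series the question was whether loss of HIRE1 altered these genes in the arches. None of the 4 members was called in PA2, where 0.438% of all genes were called, or in PA3, where 0.216% were. The test of the difference between the arches' responses called none of the 4 either, against 0.0487% of all genes. The unadjusted edgeR p was under 0.05 for Bmp5 in PA2, for Hmx1 and Gdf6 in PA3, and for all but Prkra in the difference between arches. Of the 14383 genes tested, 1233 had an unadjusted p under 0.05 in PA2, 1400 in PA3 and 794 in the difference.

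Bmp5 stood at 16.7, 14.6 and 16.1 CPM in PA2 WT and at 9.81, 11.1 and 10.3 CPM in PA2 HIRE1del. All 3 HIRE1del libraries were lower than all 3 WT libraries. The share of all genes that separate in this way was not counted, so the separation does not set Bmp5 apart. The 0.32% of all genes called lower refers to the adjusted p and is no measure of such separation. The log2 fold change was -0.60 (SE 0.136, 95% interval -0.89 to -0.30), with an edgeR p of 0.000733 and an adjusted p of 0.101, so it missed the threshold. It passed with DESeq2 (-0.59, adjusted p 0.00807), which called 1.13% of all genes, and with edgeR fitted to the PA2 libraries alone (-0.59, adjusted p 0.0355), which called 0.432%. Over 14 alternatives the adjusted p ran from 0.00807 to 0.374. In PA3, the WT libraries at 11.9, 10.6 and 14.9 CPM and the HIRE1del libraries at 10.7, 14.4 and 13.7 CPM overlapped, with a log2 fold change of 0.05 (95% interval -0.24 to 0.34). The difference between the arches' responses was -0.64 (SE 0.192, edgeR adjusted p 0.858).

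Hmx1 stood at 31.8, 43.5 and 40.2 CPM in PA2 WT and at 25.2, 23.4 and 27.3 CPM in PA2 HIRE1del. The genotypes did not overlap, with the HIRE1del libraries lower, though the share of all genes that separate so was not counted. The log2 fold change of Hmx1 was -0.61 (SE 0.300, 95% interval -1.25 to 0.04, edgeR adjusted p 0.620). In PA3 it stood at 4.25, 14.3 and 13.5 CPM in WT and at 16.2, 13.2 and 23.0 CPM in HIRE1del, so that replicate 1 of WT, 1 of the 2 libraries low in Y-linked transcripts, lay far below the rest and the genotypes overlapped. The log2 fold change there was 0.70 (SE 0.319, edgeR adjusted p 0.507), and 0.33 without that library. The difference between the arches' responses was -1.31 (SE 0.438), with an edgeR p of 0.0104 and an adjusted p of 0.887.

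Gdf6 stood at 9.14, 7.15 and 9.17 CPM in PA2 WT and at 11.2, 8.11 and 8.35 CPM in PA2 HIRE1del, which overlapped (log2 fold change 0.12, 95% interval -0.25 to 0.49). In PA3 it stood at 4.13, 3.86 and 5.92 CPM in WT and at 7.74, 7.80 and 8.03 CPM in HIRE1del. There all HIRE1del libraries were higher than all WT libraries, and they lay close together. The share of all genes that separate in this way was not counted, so the separation does not set Gdf6 apart. The 0.0556% of all genes called higher refers to the adjusted p and is no measure of such separation. The log2 fold change in PA3 was 0.76 (SE 0.178), with an edgeR p of 0.000934 and an adjusted p of 0.179, and DESeq2, which called 0.654% of all genes there, gave 0.76 with an adjusted p of 0.0172.

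Prkra stood at 74.6, 66.4 and 78.5 CPM in PA2 WT and at 72.0, 70.9 and 87.3 CPM in PA2 HIRE1del, and at 60.5, 63.0 and 71.8 CPM in PA3 WT and 61.1, 69.97 and 68.9 CPM in PA3 HIRE1del. The genotypes overlapped in both arches. On the log2 scale the change was 0.07 in PA2 (95% interval -0.13 to 0.27) and 0.03 in PA3 (-0.17 to 0.24).

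**Figure D4:**
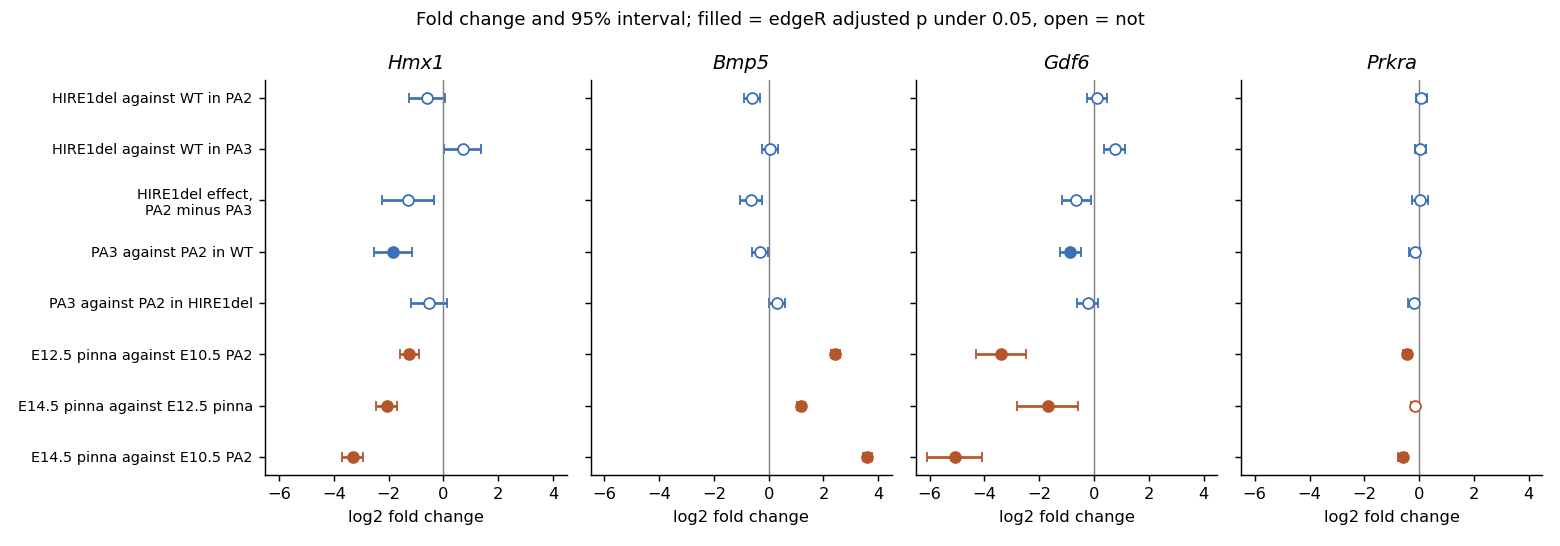
Log2 fold change of each member (horizontal axis) with its 95% interval in 5 comparisons of the genotype series and 3 of the stage series; filled points passed edgeR's adjusted p of 0.05. No point of the 3 HIRE1del comparisons is filled, while all stage points are filled except Prkra between E12.5 and E14.5 (-0.15).

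The BMP pathway and small RNA lists gave the same picture of no calls, and the Hox and cofactor list did not. None of the 31 BMP pathway genes tested and none of the 14 small RNA and double-stranded RNA genes was called in either arch or in the difference, with median log2 fold changes of -0.13 and 0.01 in PA2 against -0.01 over all genes. Of 5 tested Hox and cofactor genes, Hoxa2, Meis1 and Meis2 were called lower in PA2 HIRE1del, where 0.32% of all genes were. Their log2 fold changes were -3.74, -0.51 and -0.67 (edgeR adjusted p 1.56e-09, 0.0359 and 7.92e-06), and Hoxa2 alone of that list was called in PA3. MEIS proteins are homeodomain partners of HOX proteins on DNA. Summed neuronal markers were 76.6 to 79.0 CPM in PA2 WT and 57.2 to 59.2 CPM in PA2 HIRE1del, with none of 6 tested called. Glial markers, at 45.0 to 51.0 and 34.5 to 43.0 CPM, and muscle markers, at 27.0 to 28.0 and 23.4 to 25.5 CPM, were likewise lower in PA2 HIRE1del without overlap. Cartilage markers were higher without overlap, at 1078 to 1268 and 1357 to 1446 CPM, and no single gene of these 3 lists was called. How often such sums separate by genotype was not counted. Epithelial, endothelial, erythroid and neural crest mesenchyme sums overlapped, the last at 1073 to 1201 and 1069 to 1211 CPM. The part of other cell types in the Bmp5 and Hmx1 values was not tested.

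The comparison between arches showed where the members were placed at E10.5. In WT, Hmx1 and Gdf6 were called lower in PA3 than in PA2, where 36.5% of all genes were called and 17.4% were lower. Hmx1 was 3.58-fold lower (log2 fold change -1.84, SE 0.316, edgeR adjusted p 0.000621) and Gdf6 1.82-fold lower (-0.87, SE 0.178, edgeR adjusted p 0.0021), and in both genes the arches did not overlap. Without PA3 WT replicate 1, Hmx1 was still lower, by 1.47 on the log2 scale, and passed. Bmp5 differed by -0.33 on the log2 scale (edgeR adjusted p 0.0693) and Prkra by -0.17 (edgeR adjusted p 0.181), neither of which passed.

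Same-numbered PA2 and PA3 libraries of a genotype deviated together, although no label names a pairing of the arches. With each genotype and number taken as a block on that ground, Bmp5 passed as well in WT (-0.34, edgeR adjusted p 0.0188), with 42.4% of all genes called. In HIRE1del none of the 4 passed without the block, where 33.4% of all genes were called, 14.7% lower and 18.7% higher in PA3. With this inferred pairing as a block, by which 39.1% of all genes were called, Hmx1 (-0.56, edgeR adjusted p 0.0316) and Prkra (-0.20, edgeR adjusted p 0.0306) were lower in PA3 and Bmp5 higher (0.30, edgeR adjusted p 0.0386). Gdf6 had a log2 fold change of -0.23 (95% interval -0.60 to 0.14). The PA3 against PA2 contrast of Bmp5 was thus negative in WT and positive in HIRE1del, and the test of that difference is the one given above, which did not pass after adjustment.

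Markers of other cell types differed between the arches in both directions. In WT, 6 erythroid markers summed to 1526 to 2395 CPM in PA2 and to 12360 to 24183 CPM in PA3, and 8 epithelial markers to 256 to 287 and 574 to 741 CPM. All 6 erythroid markers were called higher, and 6 of 8 epithelial markers higher and 1 lower. The 7 neuronal markers summed to 76.6 to 79.0 CPM in PA2 and 153 to 211 CPM in PA3, with all 6 tested called higher, and 5 glial markers to 45.0 to 51.0 and 100.1 to 135 CPM, with 2 of 4 tested called higher. Of the endothelial markers 4 of 6 were called higher, at 255 to 264 and 295 to 314 CPM. The 6 muscle markers summed to 27.0 to 28.0 and 41.9 to 49.5 CPM, with Actc1 called higher and Myf5 and Pax7 lower. The 6 cartilage markers were on the lower side in PA3, at 1078 to 1268 CPM in PA2 and 752 to 941 CPM in PA3, with all 3 tested (Sox9, Col2a1, Col9a1) called lower. The 8 neural crest mesenchyme markers summed to 1073 to 1201 CPM in PA2 and 725 to 916 CPM in PA3, with 5 called lower and 1 higher. The part of these differences in the lower Hmx1 and Gdf6 was not tested.

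The BMP pathway list had 14 genes called higher and 6 lower in PA3 WT of 31 tested, where 19.1% of all genes were higher and 17.4% lower. Bmp4 was higher in PA3 by 1.35 on the log2 scale and Bmp7 by 0.53, and Bmpr1b was lower, at 30.1 against 64.2 CPM. Bmp5 made up 15.2 to 16.9% of the summed ligand level in PA2 WT and 6.86 to 8.87% in PA3 WT, and Gdf6 8.53 to 10.7% and 2.76 to 4.01%. The sum itself was 24.2 ± 0.387 CPM per kb in PA2 WT and 40.9 ± 2.06 in PA3 WT. In PA2 HIRE1del Bmp5 made up 10.4 to 13.9%, below the PA2 WT libraries. Of the small RNA and double-stranded RNA genes 5 of 14 were lower in PA3 WT and none higher, among them Drosha (-0.28) and Dicer1 (-0.37).

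Both series held E10.5 PA2, unsorted as far as stated in the genotype series and sorted in the stage series. Side by side, the mean was 15.8 and 16.5 CPM for Bmp5, 8.49 and 8.18 CPM for Gdf6, 73.1 and 72.9 CPM for Prkra, and 38.5 and 84.8 CPM for Hmx1. The Hmx1 values were the farthest apart, and these values come from separately normalised tables and carry no test.

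The genes whose levels followed each member most closely were ranked by Pearson's r over the 21 libraries, on log2(CPM + 0.5) centred on each table's mean, among 12871 genes tested in both tables. Libraries of a group share stage or arch, so the r values mainly order genes by their group means. For Hmx1 they were Hsd17b4 (0.94), Lrba (0.94), Gsc (0.94), Rnf20 (0.94) and Zfp184 (0.93), and 38 genes exceeded 0.9. For Bmp5 they were Dop1a (0.99), Ablim1 (0.98), Atrnl1 (0.98), Ahnak (0.98) and Col6a1 (0.98), and 1057 genes exceeded 0.9. For Gdf6, Kdm1a (0.97), Sumo3, Pwp1, Fut4 and Smu1 led, with 900 genes over 0.9, and for Prkra, Crnkl1 (0.94), Utp6, Pwwp3b, Smc1a and Ints10, with 30. For the 5 genes most like Bmp5, r was 0.405 to 0.634 over the 12 genotype libraries and 0.995 to 0.998 over the 9 stage libraries. For those of the other members it was 0.748 to 0.895 over the genotype libraries. With a pseudocount of 2 CPM the counts over 0.9 were 72 for Hmx1, 1088 for Bmp5, 426 for Gdf6 and 30 for Prkra, so more genes lay that close to Bmp5 and Gdf6 than to Hmx1 and Prkra with either pseudocount.

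Genes within 250 kb of each member were examined in the same fits. None of the tested neighbours of any member was called in the 3 HIRE1del comparisons. Of the 3 tested near Hmx1 in the first stage step, Cpz, a carboxypeptidase gene 102 kb away, was lower (-1.16), Acox3 higher (0.32), and Trmt44 was not called. In the second step Acox3 was lower (-0.26) and the other two were not called. Near Bmp5, 3 of 4 tested neighbours were higher in the first step, Tmod2 (0.39), Lysmd2 (0.63) and Hmgcll1 (0.43), against 2.42 for Bmp5 itself and 35% of all genes called higher. In the second step Tmod3 (0.69), Tmod2 (0.32) and Lysmd2 (0.46) were higher and Hmgcll1 lower (-0.58), where 32.6% of all genes were higher and 33.1% lower. The only tested neighbour of Gdf6, Asph, was higher in both steps (0.32 and 0.36). Near Prkra, 3 of 5 tested neighbours were higher in the first step and 2 lower, against 35% and 33.7% of all genes. Osbpl6 (1.01), Fkbp7 (1.09, 15.03 kb away) and Ttn (3.64) were higher, and Rbm45 (-0.24) and Plekha3 (-0.54) were lower, as was Prkra. In the second step Fkbp7 (1.03) and Plekha3 (0.52) were higher, Rbm45 (-0.39) and Ttn (-0.68) were lower, and Osbpl6 was not called.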

How the data were processed

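RNA-seq gene counts of 12 genotype and 9 stage libraries were used, with 3 biological replicates per group. The authors aligned the reads with QuasR to GRCm38/mm10 and deposited raw counts over the exons of UCSC known genes, counted in the orientation opposite to the gene although the kit is described as unstranded. Genotype libraries were paired-end and stage libraries single-end. The number of value columns not used was 0. Genes reaching 1 CPM in 2 or more libraries were fitted with edgeR 4.0.16 (R 4.3.3) in 1 quasi-likelihood model per table, with TMM factors, Benjamini-Hochberg adjustment over all genes tested and a threshold of 0.05. Intervals are 95% intervals from the model. On simulated data, 96.0% of genes changed by 1 on the log2 scale were recovered for HIRE1del against WT in PA2 (14071 genes). For E12.5 against E10.5 (13045 genes), 98.0% were recovered. False calls numbered 16 and 11, in that order. Every simulated gene had the same relative spread between libraries, so recovery for genes with a wider spread, such as Hmx1, was not tested. Recovery of changes smaller than 1 on the log2 scale was not tested either. No 2 replicates held identical counts.

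The members and lists were chosen with earlier results of these data known. The genes named are the members, the listed genes, the 5 genes most like each member, the neighbours within 250 kb and Hoxa2. Same-numbered PA2 and PA3 libraries of a genotype deviated together (r of 0.230 to 0.382 in WT and 0.213 to 0.342 in HIRE1del). The data alone showed this, no label names a shared pool, and genotype with number served as a block. Alternatives were DESeq2 1.42.0, limma-voom (limma 3.58.1), relative log expression and total-count scaling, other filters, a replicate block, only the libraries compared, and leaving out each library. Length-scaled levels used the exon lengths of the tables, and GENCODE lengths were the same for the members.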

Additional observations from a re-analysis of the deposited data

How the results depend on the processing

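Of 467 recomputed values of the 32 member fold changes, 445 kept their direction and side of the threshold, and 12 of the 13 called changes passed in every alternative run. DESeq2 called Bmp5 in PA2 HIRE1del (-0.59) and Gdf6 in PA3 HIRE1del (0.76), and the fit to only the libraries compared called Bmp5 in PA2 (-0.59). With the replicate block, Bmp5 passed between arches in WT (-0.34), and Hmx1 (-0.56), Bmp5 (0.30) and Prkra (-0.20) in HIRE1del, and the block changed no other member's call. Replicate numbers did not pair genotypes or stages. Total-count scaling called Prkra between E12.5 and E14.5 (-0.27), and limma-voom lost Gdf6 there (-1.55, adjusted p 0.0986). The cause of these shifts was not tested. Gdf6 was not tested in that step with only the libraries compared, where it failed the filter.

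Leaving out each library gave -0.067 to 0.090 for Prkra and -0.78 to -0.54 for Bmp5 in the difference between arches' responses. For HIRE1del against WT it gave -0.045 to 0.20 for Gdf6 and -0.034 to 0.12 for Prkra in PA2, and -0.055 to 0.20 for Bmp5 and -0.016 to 0.11 for Prkra in PA3. Between arches it gave -0.47 to -0.23 for Bmp5 in WT, which passed without PA3 WT replicate 3, and 0.23 to 0.43 in HIRE1del, which passed without PA3 HIRE1del replicate 1. Between E12.5 and E14.5 it gave -2.03 to -1.28 for Gdf6.

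Counts of all genes called for HIRE1del in PA2, in PA3 and in the difference were 63, 31 and 7, against 162, 94 and 27 with DESeq2 and 105, 54 and 26 with the replicate block. Without single libraries the lowest of these counts were 33, 8 and 3. With a pseudocount of 2 CPM, 2 of the 5 genes most like Gdf6 remained. Gdf6 rests on 9 to 32 counts per pinna library, which limits the precision of its later step.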
